A study of Mus musculus with 4 samples.

Results

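The genes that govern hepcidin, the hormone of iron balance, were followed in kidney RNA of Th3 mice and control mice. The 10 genes were the hepcidin genes Hamp and Hamp2, the sensors and co-receptors Hfe, Hjv, Tfr2 and Neo1, the protease Tmprss6, the plasma carrier Trf and the signalling inhibitors Smad7 and Smad6. They were chosen by name: every probe that is not a control spot and whose gene name or synonym was one of the 10 was taken, which gave 14 probes of 41174 on the array and 10 genes of 27573 names. The array lists Hamp as Hamp1, Hjv as Hfe2 and Tfr2 as Trfr2.

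Messenger RNA was measured on 4 two-colour oligonucleotide arrays, each with 1 Th3 and 1 control kidney sample, 4 of each in all. Th3 mice, a model of the inherited anaemia beta-thalassemia, lack the adult beta-globin genes beta-major and beta-minor through a deletion; the labels give the other side only as control. Age, sex, the strain around the deletion, whether 1 or both chromosomes carry it, and whether each sample came from its own animal are not stated, so p-values measure a spread that may be technical. Arrays 1 and 2 had the dye Cy5 on the Th3 sample, and for arrays 3 and 4 the dyes were swapped.

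Hepcidin is a small peptide made mainly by hepatocytes, and it blocks iron export by binding ferroportin on the surface of enterocytes and macrophages. Its transcription rises when bone morphogenetic proteins (BMPs) such as BMP6 bind receptors together with the co-receptor hemojuvelin (product of Hjv) and drive SMAD proteins into the nucleus. HFE and transferrin receptor 2 add the signal of iron-loaded transferrin, and TMPRSS6 (matriptase-2) turns the route down by cleaving hemojuvelin. Interleukin-6 acts through STAT3, and erythroferrone from red cell precursors lowers hepcidin in anaemias such as thalassemia. Kidney tubules also handle filtered iron and transferrin, and their interstitial cells make erythropoietin.

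The mouse has 2 hepcidin genes, and the arrays carry 1 probe for each. The probe sequences are shown first, because the genes are near copies and the readings can be told apart only as far as the probes differ. Both are written 5′ to 3′ from the array annotation on build mm8, minus strand, with the bases that differ in capitals. The Hamp probe lies at chr7:30651231-30651290 and the Hamp2 probe at chr7:30631261-30631320.

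Hamp probe: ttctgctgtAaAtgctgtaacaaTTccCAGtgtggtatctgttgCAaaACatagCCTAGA

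Hamp2 probe: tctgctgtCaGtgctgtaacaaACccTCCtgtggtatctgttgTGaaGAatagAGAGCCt

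Set against each other without gaps, with the Hamp2 probe shifted by 1 base, the probes overlap over 59 bases and are identical at 42 of them (71.2%). They differ at 17 bases, and the longest run they share is 14 bases. How far each probe also takes up RNA of the other gene was not tested.

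The stretches before the start sites are shown because the BMP and interleukin routes described here end there. They are the 150 bases before each start from the RefSeq promoter table of build GRCm38.p6, minus strand, and belong to the reference strain, not to the mice of the study. Capitals mark GGCGCC, the core of the BMP-responsive element known from hepcidin promoters, or its counterpart, and a match to TTCNNNGAA, the STAT motif. The Hamp stretch is chr7:30944030-30944179 and the Hamp2 stretch is chr7:30924182-30924331.

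Hamp upstream: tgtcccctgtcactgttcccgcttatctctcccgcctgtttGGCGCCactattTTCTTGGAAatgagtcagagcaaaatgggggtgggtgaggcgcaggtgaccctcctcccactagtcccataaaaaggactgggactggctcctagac

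Hamp2 upstream: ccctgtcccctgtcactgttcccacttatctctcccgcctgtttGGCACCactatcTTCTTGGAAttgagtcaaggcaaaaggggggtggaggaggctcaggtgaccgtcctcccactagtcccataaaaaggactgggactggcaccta

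Over 247 aligned bases of the 250 searched, 227 (91.9%) are identical. GGCGCC begins 109 bases before the start of Hamp. At the matching place in Hamp2, 106 bases before its start, the sequence carries the substitution G4A, counted from 1 at the 5′ end of the motif in Hamp. The STAT match TTCTTGGAA stands in both, 97 bases before the start of Hamp and 94 before that of Hamp2. Both motifs read the same on either strand and do not overlap here. GGCGCC occurs in 2577 of 27025 promoters of this length (9.54%), and TTCNNNGAA in 1940 (7.18%). Among the 6 members with a promoter entry, Neo1 also holds GGCGCC, 28 bases before its start. A match describes letters only.

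The deleted globin served as the check of the labels. The beta-globin probe named Hbb-bt stood at 8.48% of control in Th3 kidney, a log2 ratio of -3.56 ± 0.48 (SD, n = 4 arrays), and was lower on every array. Of all probes, 64.9% to 72.2% were well above background in the Th3 channel and 61.8% to 71% in the control channel, and no spot was saturated. All 11 kidney markers examined were well above background. In what follows a level is a normalized log2 intensity of 1 probe in 1 channel, a log2 ratio is Th3 over control, and a gene passed when limma's adjusted p over 17628 tested genes was under 0.05. Levels of different probes are not comparable. In whole kidney, more cells of a type and more RNA per cell cannot be told apart.

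A gene was tested if 1 of its probes was well above background in all 4 samples of a group. That held for 8 of the 10 genes, but not for Hamp and Hjv. In Th3 kidney Tmprss6 was lower and Neo1 and Trf were higher, and the remaining 5 did not pass. That is 37.5% of those tested, read against 21.5% of all genes (10.9% higher, 10.6% lower); among 8 genes these shares differ by little more than 1 gene. The median log2 ratio of the 8 was 0.19, against 0.00 over all genes, and 7 of 8 ratios lay above 0, against 50.3% of all genes. Of the 11 probes bright enough to test, 2 were higher and 1 lower in the fit over all probes, in which 18.2% of probes passed (9.27% higher, 8.92% lower).

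**Figure D1:**
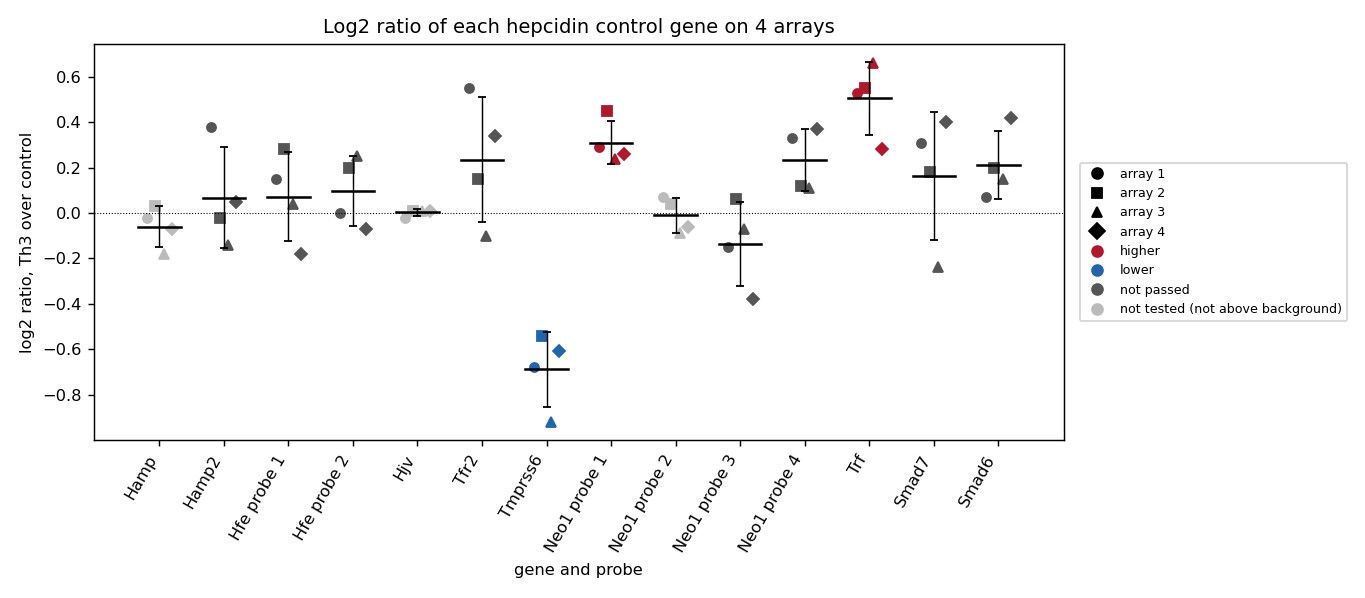
Log2 ratio of Th3 over control for each of the 14 probes (x axis) on arrays 1 to 4 (symbols), with the mean (bar) and SD over arrays (whisker); the colour gives the result over all probes tested, and pale grey marks 3 probes that were not tested because they were not well above background in all 4 samples of either group. Tmprss6 lies below 0 on every array and Trf above 0 on every array, while the Neo1 probes spread on both sides of 0.

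Hamp, the main hepcidin gene, gave no usable signal in either group. Its level in the Th3 samples of arrays 1 to 4 was 6.32, 6.37, 6.28 and 6.37, and in the control samples 6.34, 6.34, 6.46 and 6.44. These values overlap and lie among the floors of the arrays, 6.22 to 6.49, where a floor is the lowest level of any probe well above background. Its probe was not well above background on any of 4 Th3 arrays and passed that flag on 1 of 4 control arrays, array 3. No fold is given.

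Hamp2, the second hepcidin gene, which in mice is made in liver and pancreas, was well above background in all 4 samples of both groups, though only a little above the floors. Its levels were 7.18, 6.87, 6.76 and 6.81 in Th3 and 6.80, 6.88, 6.90 and 6.76 in control. Array 1 held the highest Th3 sample, and otherwise the groups overlapped. The log2 ratio was 0.07 ± 0.22 (SD, n = 4), with a 95% interval of -0.12 to 0.26 and an adjusted p of 0.582 in the limma fit. Without array 1 it was -0.03, without array 2 it was 0.17, and without arrays 3 and 4 in turn it was 0.12 and 0.02. Of 7 pancreas markers, 4 were well above background on at least 1 array and Cpa1, Pnlip and Prss2 on none. The 2 that could be tested, both through the Th3 samples only, did not pass. Ctrb1 was well above background in every sample but had no value once outlier spots were dropped.

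Hjv encodes hemojuvelin, the BMP co-receptor that is known from liver and skeletal muscle. Its probe (chr3:96613595-96613654, mm8, plus strand) stayed below that mark on every array and in both channels. The levels ran from 6.28 to 6.35 in Th3 and from 6.27 to 6.34 in control. Of 10 skeletal muscle markers, 8 were well above background on at least 1 array and Ckm and Tnnt3 on none. Of 6 tested, 1 was lower in Th3 and none higher (16.7%, against 21.5% of all genes). The part of these markers in the Hjv reading was not tested.

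**Figure D2:**
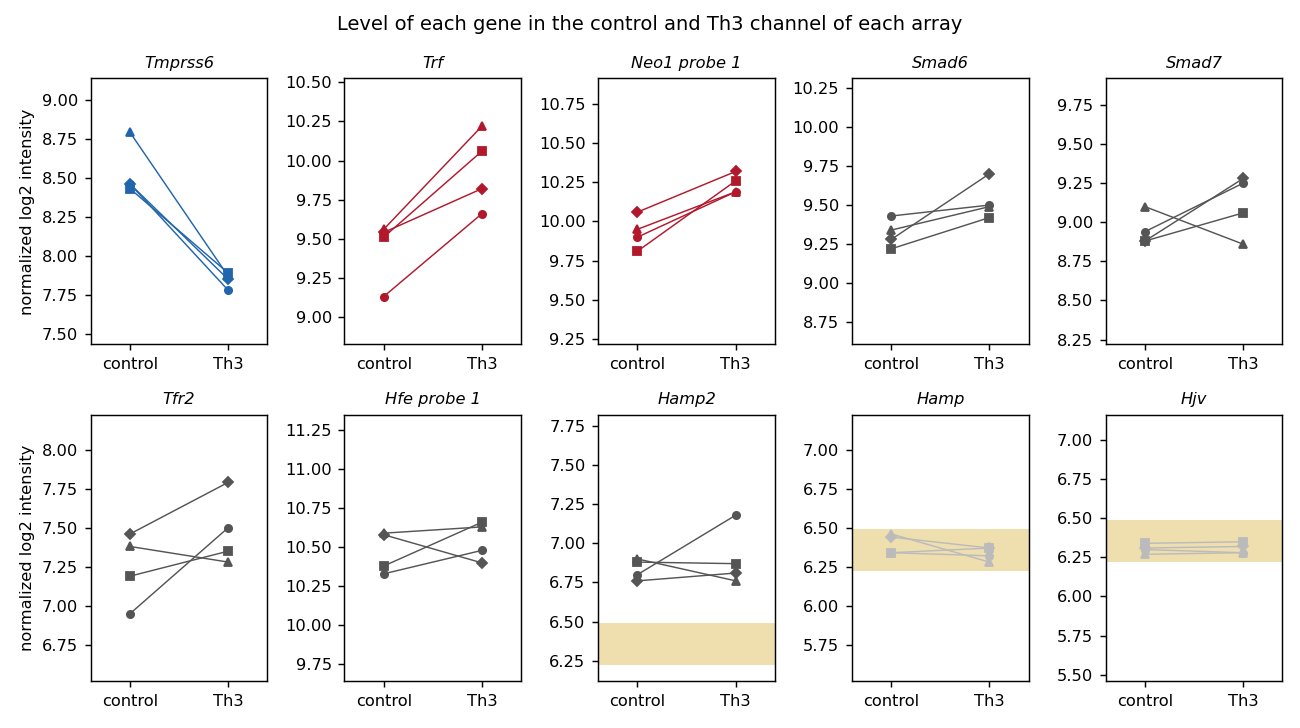
Normalized log2 intensity (y axis, the same span of 1.7 in each panel but a different position) of 1 probe per gene in the control and Th3 channel; a line joins the samples of 1 array, and the symbols are those of arrays 1 to 4 in the plot of ratios. The shaded band marks the range of the arrays' floors, 6.22 to 6.49. Hamp and Hjv lie in it and Hamp2 just above it. Of the probes shown, those of Tmprss6, Trf and Neo1 separate into groups that do not overlap. The share of all genes that separate so was not counted.

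Tmprss6 encodes the membrane serine protease that cleaves hemojuvelin and so restrains hepcidin in the liver. Its single probe (chr15:78267083-78267142, mm8, minus strand) had levels of 7.78, 7.89, 7.87 and 7.85 in the Th3 samples of arrays 1 to 4. The control samples stood at 8.46, 8.43, 8.79 and 8.46. The groups did not overlap, and the Th3 samples lay close together (mean 7.85 ± 0.05, against 8.54 ± 0.17 in control, SD, n = 4). How many of all genes have groups that do not overlap was not counted. The log2 ratios by array were -0.68, -0.54, -0.92 and -0.61.

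Tmprss6 RNA stood at 62.0% of control, 1.61-fold lower, with a log2 ratio of -0.69 ± 0.16 (SD), a standard error of 0.07 and a 95% interval of -0.85 to -0.52 (limma adjusted p 0.00235). It was the lowest p of the 10 genes, and 173 of 17628 genes, itself included, lay at least as far below 0. The mean was -0.61 where Th3 carried Cy5 and -0.77 where it carried Cy3. Under 14 other ways of processing the ratio ran from -0.95 to -0.61 and stayed lower, with adjusted p from 2.23e-05 to 0.0118. The smallest came without array 2, where the fit over all probes gave 0.00177. The lowest value, -0.95, came from the scanner's own processed signals, to which no offset is added. In the authors' deposited table its log2 ratios were -0.85, -0.91, -0.99 and -0.71, with a signed fold of -1.82 and an adjusted p of 0.00162.

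The genes whose 4 log2 ratios lay nearest to those of Tmprss6, by Euclidean distance over the 4 arrays, were Perm1 at 0.13, Slc9a2 at 0.19 and Bdnf at 0.19. The median distance over all tested genes was 1.43. Slc9a2 encodes a sodium-proton exchanger of epithelia, and its log2 ratios were -0.78, -0.68, -0.93 and -0.54. Bdnf encodes a neurotrophic growth factor and had a mean log2 ratio of -0.64 ± 0.12, and Perm1, a regulator of mitochondrial genes in muscle, one of -0.71 ± 0.18 (SD, n = 4).

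Of the genes that carry the transferrin signal, Trf rose and the sensors did not pass. Trf encodes transferrin, the plasma protein that carries iron to cells. Its probe is 60 bases long and is placed on a span of 616 bases (chr9:103073389-103074004, mm8, minus strand), so its bases are not contiguous in the genome. The Th3 levels were 9.66, 10.06, 10.22 and 9.82 and the control levels 9.13, 9.51, 9.56 and 9.54. Every Th3 sample lay above every control sample, but the share of all genes that separate so was not counted.

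The log2 ratios of Trf were 0.53, 0.55, 0.66 and 0.28, a mean of 0.50 ± 0.16 (SD, n = 4) or 1.42-fold, with a 95% interval of 0.33 to 0.68 (limma adjusted p 0.00697). Under the 14 alternatives it ran from 0.41 to 0.60 and remained higher. Most of the tested genes known for high expression in hepatocytes were higher too. Of 20 such genes on the array, all had a probe well above background on at least 1 array. Of 19 tested, 13 were higher and 2 lower in Th3 (78.9%, against 21.5% of all genes), with a median log2 ratio of 0.53. Of the 13, Apoa1, Cps1 and Serpina3k were testable only through the Th3 samples, where they are high; among the 16 genes well above background in all samples of both groups, 10 were higher and 2 lower, with a median of 0.50. Their summed linear level ran from 17900 to 20200 in Th3 and from 8680 to 16500 in control. By array, the log2 ratio of that sum was 1.09, 0.44, 0.31 and 0.12, and that of Trf was 0.53, 0.55, 0.66 and 0.28. A few bright probes weigh most in the sum: Cyp2e1, which did not pass, made up 20% of it and Apob 19.3%. The secreted liver protein Ahsg rose by 1.99 ± 0.85 on the log2 scale, and the fibrinogen chains Fgg and Fgb by 1.21 ± 0.33 and 1.13 ± 0.22. The urinary protein gene Mup1 stood at -1.96 ± 1.47 and the apolipoprotein gene Apob at -0.30 ± 0.31 (SD, n = 4). Both lost their calls without the dye term (adjusted p 0.051 and 0.149), and Apob also without array 2 (-0.27, 0.0681) or array 4 (-0.23, 0.0621). Albumin (Alb) had a ratio of 0.59 ± 0.54 that did not pass (adjusted p 0.0712), and it stood at 0.31 without array 1 (0.0764). Without array 2 it stood at 0.88 and passed (1.49e-05), but residual spread was then read from arrays 3 and 4 only. That p is far below the one from all 4 arrays and is no measure of the spread among them. The part of these hepatocyte genes in the Trf result was not tested.

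Tfr2 encodes transferrin receptor 2, a sensor of iron-loaded transferrin in hepatocytes and red cell precursors. Its probe (chr5:137817152-137817211, mm8, plus strand) gave Th3 levels of 7.50, 7.35, 7.28 and 7.79 and control levels of 6.95, 7.19, 7.38 and 7.46. The ranges overlap, and Th3 was higher on 3 arrays and lower on array 3. The log2 ratio was 0.24 ± 0.28 (SD, n = 4), with a 95% interval of 0.01 to 0.47 and a p of 0.0462 in the limma fit that became 0.131 after adjustment. Without array 2 it stood at 0.33 and passed in the fit over genes (adjusted p 0.0287) but not in that over probes (0.0806). It stood at 0.14 without array 1 and 0.13 without array 4. Over the alternatives it ran from 0.13 to 0.47. The markers of red cell precursors, where Tfr2 is also expressed, had 6 of 8 tested genes higher and none lower. That is 75%, against 21.5% of all genes, and their median was 0.40. Of the 6, 4 were testable only through the Th3 samples, and of the other 4 genes 2 were higher; one of them, Tfrc, is also an iron gene. Their summed level ran from 4320 to 6080 in Th3 and from 3520 to 5590 in control. Their part in the Tfr2 value was not tested.

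Hfe encodes the major histocompatibility complex-like protein that is mutated in hereditary haemochromatosis. Both of its probes lie on chromosome 13 on the minus strand of mm8 and were well above background on every array. The brighter one (chr13:23711518-23711577) had levels of 10.48, 10.66, 10.63 and 10.40 in Th3 and 10.33, 10.38, 10.59 and 10.58 in control. The groups overlapped, with a log2 ratio of 0.07 ± 0.20 and a 95% interval of -0.08 to 0.22 (limma adjusted p 0.464). The other probe (chr13:23710064-23710123) gave 0.09 ± 0.16. Neither probe passed under its fit (adjusted p over all probes 0.469 and 0.411), and with 1 array left out the brighter one ran from 0.01 (without array 3) to 0.13 (without array 4).

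Neo1 encodes neogenin, the membrane receptor that binds hemojuvelin and other members of the repulsive guidance family. It had 4 probes on chromosome 9, minus strand of mm8, and they did not give 1 answer. The brightest had Th3 levels of 10.19, 10.26, 10.19 and 10.32 and control levels of 9.90, 9.81, 9.95 and 10.06, which do not overlap. Its log2 ratio was 0.31 ± 0.10 (SD, n = 4), or 1.24-fold, with a 95% interval of 0.18 to 0.44 (limma adjusted p 0.0121). The annotation places only 9 bases of it, at chr9:58672815-58672823. How many of all probes have groups that do not overlap was not counted.

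A second probe (chr9:58710213-58710272) gave 0.23 ± 0.13, with no overlap between the groups and an adjusted p over all probes of 0.0602. It did not pass, and here too the share of separating probes was not counted. Another (chr9:58673878-58673937) gave -0.13 ± 0.18, below 0 on 3 arrays and 0.06 on array 2. The remaining one (chr9:58683185-58683244) was not well above background in any sample. On every array the brightest probe's ratio exceeded that of the probe at chr9:58673878-58673937, by 0.31 to 0.64. With the mean of the kept probes in place of the brightest, Neo1 stood at 0.14 and did not pass (adjusted p 0.0843), and without array 2 the brightest probe stood at 0.27 (adjusted p 0.0504). Which transcripts each probe reads was not tested.

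Smad7 and Smad6 encode inhibitory SMADs, which BMP signalling switches on and which then dampen it; Smad7 acts on hepcidin directly in hepatocytes. Smad7 (chr18:75521082-75521141, mm8, plus strand) had Th3 levels of 9.25, 9.06, 8.86 and 9.28 and control levels of 8.94, 8.88, 9.10 and 8.88. Th3 was the lower sample on array 3 only. The log2 ratio of 0.16 ± 0.28 (95% interval -0.09 to 0.41) did not pass, with an adjusted p of 0.315 in the limma fit. Without array 3 it was 0.32 and passed (adjusted p 0.0316), and without array 4 it was 0.00.

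Smad6 (chr9:63751577-63751636, mm8, minus strand) was higher in Th3 on all 4 arrays, with log2 ratios of 0.07, 0.20, 0.15 and 0.42. The levels were 9.5, 9.42, 9.49 and 9.70 in Th3 and 9.43, 9.22, 9.34 and 9.28 in control, and they overlap by the highest control sample. The mean was 0.21 ± 0.15 (SD, n = 4), with a 95% interval of 0.05 to 0.37 and an adjusted p of 0.0648 in the limma fit. Without array 3 it passed, at 0.28 (adjusted p 0.043). Leaving out array 3 thus raised the number of the 10 genes called higher from 2 to 4.

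**Figure D3:**
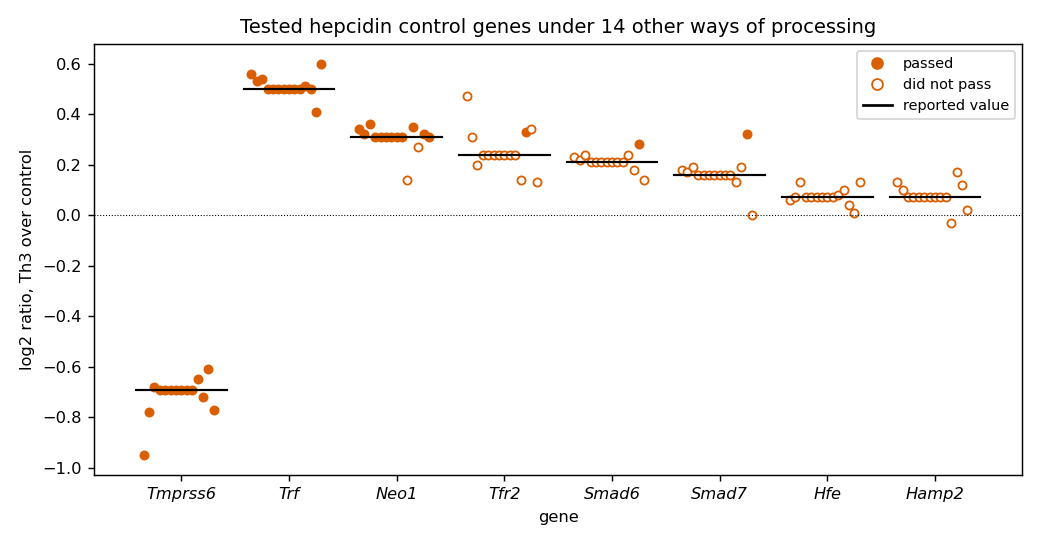
Log2 ratio of Th3 over control (y axis) of the 8 tested genes under 14 other ways of processing, which include leaving out each array in turn; filled points passed at an adjusted p under 0.05, open ones did not, and the bar is the reported value. All points of Tmprss6 and Trf are filled, from -0.95 to -0.61 and from 0.41 to 0.60, whereas Neo1 has 2 open points and Hfe and Hamp2 have no filled one.

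The rest of the pathway was taken from lists of named genes. Leaving out the 10 genes above, 79 of 90 listed genes were tested, of which 17 were higher and 11 lower in Th3. That is 35.4%, read against 21.5% of all genes, with a median log2 ratio of 0.04. The fit holds a dye term, so a difference between arrays 1 and 2 on the one side and 3 and 4 on the other does not count as spread, and dye and sample cannot be told apart there. Of these 28 genes, 7 were called under all 14 alternatives: Cebpd, Cp, Epo, Hey1 and Rgma, which rose, and Id4 and Timp3, which fell. The share of all called genes that did so was not counted. Cebpd, Cp, Hey1, Rgma and Timp3 have 1 probe each, so the mean of the probes could not change their ratios. With the pairs of arrays as a random block, 5 were called higher and 4 lower.

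**Figure D4:**
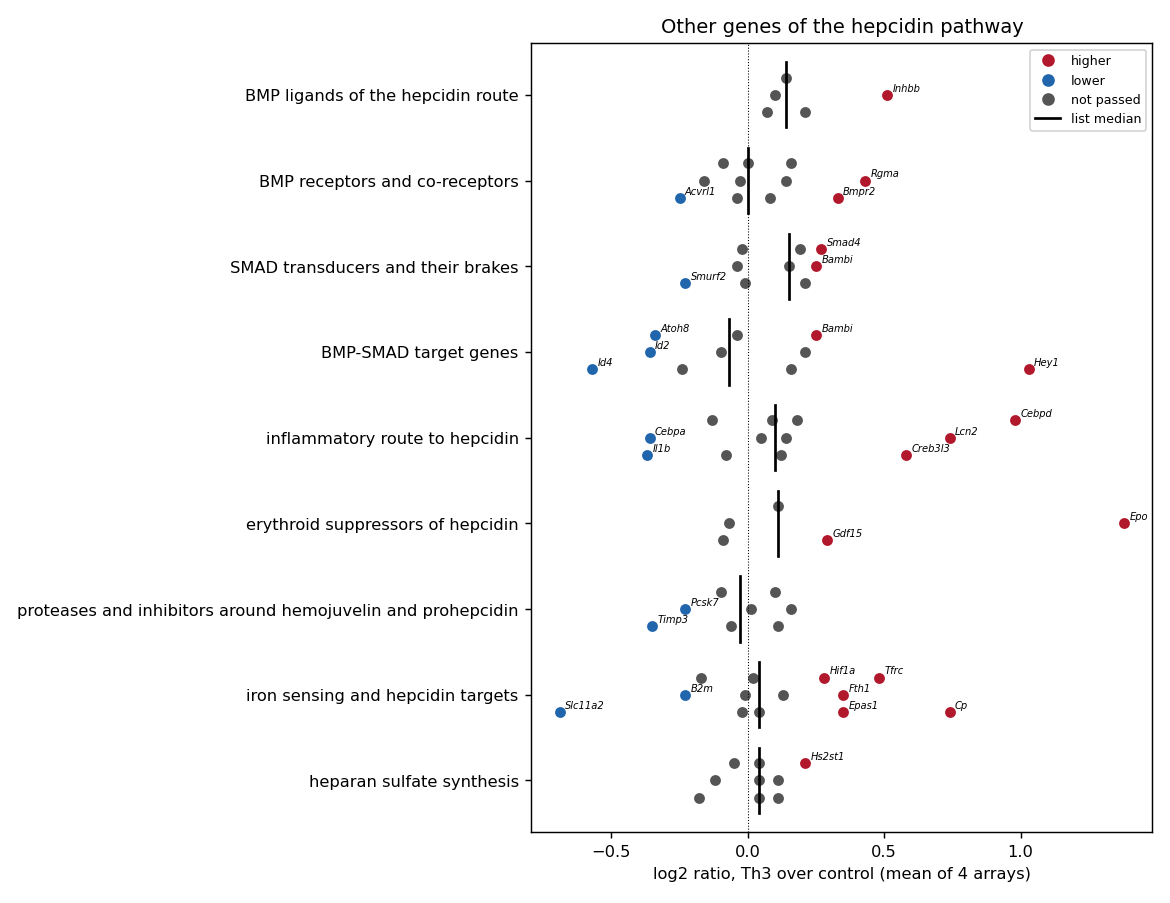
Log2 ratio of Th3 over control (x axis, mean of 4 arrays) of each tested gene in 9 lists of the hepcidin pathway; called genes are coloured and named, and the bar is the list's median. The medians lie between -0.07 and 0.15, with single genes such as Epo at 1.38, Hey1 at 1.03 and Slc11a2 at -0.69 far from them.

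Among the ligands, 1 of 5 tested genes was higher and none lower (20%, against 21.5% of all genes). It was Inhbb, which encodes the beta B subunit of activin B, a liver signal for hepcidin in inflammation, with log2 ratios of 0.86, 0.61, 0.12 and 0.44 (mean 0.51 ± 0.31, SD, n = 4; limma adjusted p 0.00748). It missed the threshold with the pairs of arrays as a random block (0.0574). Bmp6, the ligand through which iron acts in liver, had a ratio of 0.10 ± 0.19 that did not pass (adjusted p 0.42). With 1 array left out it was 0.19 (array 1), 0.01 (array 2), 0.04 (array 3) or 0.17 (array 4). Bmp5, Bmp10 and Gdf2 had no probe bright enough to test.

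Of 11 receptors and co-receptors, 2 were higher and 1 lower (27.3%, against 21.5% of all genes). Rgma, a co-receptor of the same family as hemojuvelin and also a ligand of neogenin, had log2 ratios of 0.37, 0.37, 0.42 and 0.55, a mean of 0.43 ± 0.09 or 1.34-fold (limma adjusted p 0.00491). The type II receptor Bmpr2 stood at 0.33 ± 0.13 with its brightest probe, while its other probes gave 0.04 and -0.02 and the mean of the probes did not pass (0.12, adjusted p 0.123). The endothelial receptor Acvrl1 was at -0.25 ± 0.11. It did not pass without array 1 (-0.24, adjusted p 0.11), array 2 (-0.26, 0.065) or array 4 (-0.20, 0.0736).

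Of 9 transducers and their brakes, 2 were higher and 1 lower, all by little (33.3%, against 21.5% of all genes). Smad4, the partner shared by all receptor-driven SMADs, was at 0.27 ± 0.05 and did not pass without array 2 (0.25, adjusted p 0.0719). The decoy receptor Bambi stood at 0.25 ± 0.18, and the ubiquitin ligase Smurf2 at -0.23 ± 0.13. Leaving out array 1 ended the call of Bambi (0.20, adjusted p 0.167) and that of Smurf2 (-0.26, 0.0705), as did leaving out array 4 (0.27, 0.0501, and -0.20, 0.0769). Bambi also lost it without array 3 (0.23, 0.0776) and Smurf2 without array 2 (-0.21, 0.147).

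The genes that BMP signalling is known to switch on did not move one way. Of 10 tested, with Smad6 and Smad7 among them, 2 were higher and 3 lower, with a median of -0.07. That is 50%, against 21.5% of all genes. Hey1, a transcription factor under BMP and Notch control, rose 2.04-fold, with log2 ratios of 1.09, 0.66, 0.99 and 1.36 (limma adjusted p 0.00189). Id4, an inhibitor of helix-loop-helix factors, fell, with log2 ratios of -0.69, -0.30, -0.71 and -0.58 (mean -0.57 ± 0.19, adjusted p 0.00557), and its other probe gave -0.85. Id2 was at -0.36 ± 0.14, and at -0.28 with an adjusted p of 0.0634 when arrays were centred on the median.

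Atoh8, a transcription factor under BMP control, was at -0.34 ± 0.13 and missed the threshold without array 1 (-0.27, adjusted p 0.0586) or array 4 (-0.28, 0.0563). Id1, the target most used as a measure of BMP signalling, had log2 ratios of 0.04, -0.02, -0.53 and 0.10, low on array 3 alone. Its mean of -0.10 ± 0.29 did not pass (limma adjusted p 0.525). Without array 4 Id1 stood at -0.26 and passed (0.0407), and without array 3 it stood at 0.06 (0.533).

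Of 12 genes of the inflammatory route, 3 were higher and 2 lower (41.7%, against 21.5% of all genes). Cebpd, a transcription factor of the acute phase, rose 1.97-fold, with log2 ratios of 0.71, 0.86, 0.69 and 1.66 (limma adjusted p 0.00721). Lcn2, which encodes the iron-scavenging protein lipocalin-2, was at 0.74 ± 0.51, with array 1 the highest at 1.45. Without array 1 it stood at 0.45 (adjusted p 0.00317, with residual spread read from arrays 3 and 4 only). It did not pass without array 3 (0.81, 0.0756) or array 4 (0.67, 0.105). Creb3l3, a membrane-bound factor that activates hepcidin in liver, stood at 0.58 ± 0.35 and missed the threshold with the pairs of arrays as a random block (0.0635). Il1b, which encodes the cytokine interleukin-1 beta, was at -0.37 ± 0.25 and missed the threshold without the dye term (adjusted p 0.0549). Cebpa, a liver factor that also drives hepcidin, was at -0.36 ± 0.32 with array 3 at 0.03; Cebpa lost its call without array 1 (-0.27, 0.074) or array 4 (-0.27, 0.0934).

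The cytokines Il6 and Il22 were not well above background in any sample. Of 10 macrophage markers tested, 7 were lower and 1 higher (80%, against 21.5% of all genes), with a median of -0.40. That median was -0.04 over arrays 1 and 2, and it was -0.66 over the dye-swapped arrays. On arrays 1 and 2 their summed level was 24800 and 16500 in Th3, against 20100 and 16300 in control. On arrays 3 and 4 it was 16600 and 13600 in Th3, against 34800 and 39400 in control. The log2 ratios of Il1b were -0.16, -0.20, -0.69 and -0.45. The part of macrophage markers in the Il1b result was not tested.

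The erythroid suppressors were led by Epo, the kidney's own hormone of red cell production, which rose on every array. Its log2 ratios were 1.51, 1.04, 1.30 and 1.67, a mean of 1.38 ± 0.27 or 2.60-fold (limma adjusted p 0.000993), and its second probe gave 2.01. Gdf15, a stress-induced factor that is high in the blood in thalassemia, was at 0.29 ± 0.22, with -0.01 on array 3. It did not pass without array 1 (0.25, adjusted p 0.0944) or array 4 (0.22, 0.0768). Erfe, which encodes erythroferrone, was not well above background in any sample. The other 3 tested genes of the list did not pass, so 40% of the list passed, against 21.5% of all genes.

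None of 8 tested proteases and inhibitors was higher, and 2 were lower. That is 25%, against 21.5% of all genes, and 8 genes are too few to tell these shares apart. Timp3, an inhibitor of metalloproteases, fell on every array, with log2 ratios of -0.30, -0.41, -0.28 and -0.43 (mean -0.35 ± 0.07, SD, n = 4; limma adjusted p 0.00906). Pcsk7, a proprotein convertase, was at -0.23 ± 0.07 and failed the test without array 1 (-0.20, adjusted p 0.173), array 2 (-0.25, 0.0733) or array 3 (-0.19, 0.0898).

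Of 13 genes of iron sensing and transport, 5 were higher and 2 lower (53.8%, against 21.5% of all genes). Cp, which encodes the ferroxidase ceruloplasmin, rose 1.67-fold, with log2 ratios of 1.07, 1.10, 0.45 and 0.33 (limma adjusted p 0.00105). Tfrc, the main transferrin receptor, was at 0.48 ± 0.42, with -0.04 on array 2 and 0.99 on array 3, and it did not pass without array 3 (0.33, adjusted p 0.133). Slc40a1, which encodes ferroportin, the target of hepcidin, had log2 ratios of -0.14, 0.20, -0.21 and -0.54. Its mean of -0.17 ± 0.30 did not pass (adjusted p 0.179), and it stood at -0.09 without array 1 or array 4 and at -0.26 without array 2 or array 3.

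Slc11a2, the ferrous iron importer DMT1, had probes that passed in opposite directions. The brightest gave -0.69 ± 0.28, with log2 ratios of -0.50, -1.06, -0.75 and -0.44. Another gave 0.34 ± 0.06 (limma adjusted p over all probes 0.00988), and the last gave -0.12 ± 0.14. The mean of the probes was -0.15 and did not pass (0.0831).

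Fth1, the ferritin heavy chain, had log2 ratios of 0.85 and 0.84 on arrays 1 and 2, but of -0.05 and -0.26 on the others, and its call was lost without the dye term (0.35, adjusted p 0.306). B2m, the partner chain of HFE, was split the other way, 0.26 and 0.02 against -0.62 and -0.59, and its call was lost in the same way (-0.23, 0.37). B2m also missed the threshold without array 2 (-0.17, 0.235), array 3 (-0.23, 0.0965) or array 4 (-0.24, 0.0804). The hypoxia factor Epas1, which drives Epo in kidney, stood at 0.35 ± 0.15 and Hif1a at 0.28 ± 0.26. Hif1a lost its call without array 1 (0.23, 0.118) or array 3 (0.21, 0.0892), and Epas1 with the mean of its probes (0.16, 0.0596).

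Of 9 tested heparan sulfate genes, whose sugar chains help BMPs reach their receptors, 1 was higher and none lower. That is 11.1%, against 21.5% of all genes, and 9 genes are too few to tell these shares apart. The gene was Hs2st1 at 0.21 ± 0.07, which did not pass when any 1 of the 4 arrays was left out (0.18 to 0.23, adjusted p 0.054 to 0.207).

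**Figure D5:**
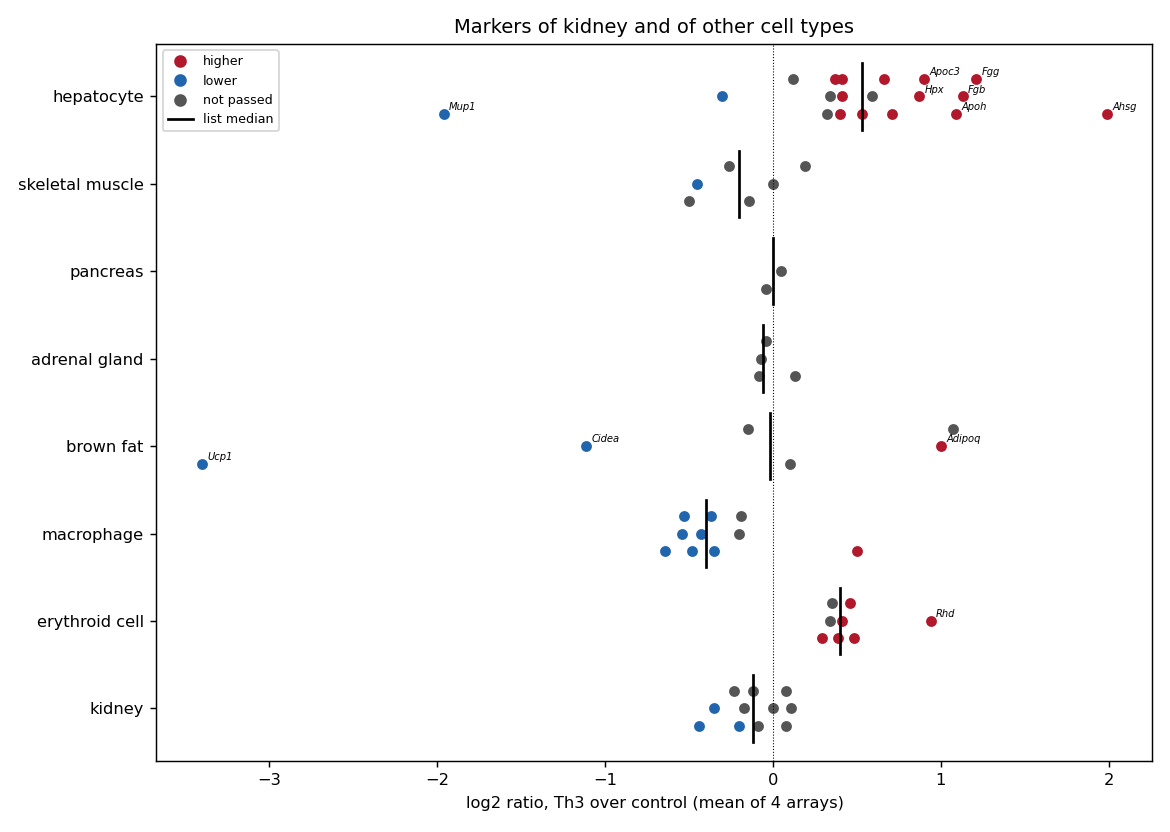
Log2 ratio of Th3 over control (x axis, mean of 4 arrays) of each tested marker of kidney and of 7 other cell types; called genes are coloured, those at least 0.85 from 0 are named, and the bar is the list's median. Hepatocyte and erythroid markers have medians of 0.53 and 0.40, macrophage markers one of -0.40, and kidney markers one of -0.12.

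By median, markers of the tissue itself shifted less than hepatocyte, erythroid and macrophage markers, and more than pancreas, adrenal gland and brown fat markers. Of 11 kidney markers, 3 were lower and none higher in Th3, with a median of -0.12. That is 27.3%, read against 21.5% of all genes. Their summed level ran from 341000 to 433000 in Th3 and from 418000 to 482000 in control. On arrays 1 and 2 the sum was 433000 and 427000 in Th3, against 432000 and 418000 in control. On the dye-swapped arrays 3 and 4 it was 369000 and 341000, against 454000 and 482000. Of the 3 lower markers, Slc34a1 had another probe at 0.18. Averaging the probes of Slc34a1 ended its call (-0.13, limma adjusted p 0.113). Cdh16, a cadherin of kidney tubules, fell, with log2 ratios of -0.29, -0.37, -0.38 and -0.38 (limma adjusted p 0.00704). Brown fat markers split, with 2 lower and 1 higher of 6 tested (50%, against 21.5% of all genes). Ucp1 was at -3.40 ± 0.93 and Adipoq at 1.00 ± 1.02. Adipoq stood at 0.56 without array 3 (adjusted p 0.0449) and lost its call in 5 of 14 alternatives, among them the fit without the dye term (0.11) and that with the random block (0.158). The part of these markers in the results of the hepcidin control genes was not tested.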

How the data were processed

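The 4 arrays were Agilent arrays with 2 colours (design 014868), and groups and dyes came from the labels. Agilent Feature Extraction 9.5.3.1 made the deposited scanner files, per the file headers, with spot and background intensities, processed intensities and a log10 ratio, which served only to check direction. The authors' deposited table holds log2 ratios, a signed fold used as a score and an adjusted p-value, by methods not given in the sources used here. Other deposited tables were not used. Positions are on mm8, from the array annotation; exon and UTR positions were not used here.

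Using limma 3.58.1 in R 4.3.3 (files were read with data.table, version 1.17.8), signals were corrected by normexp (offset 50) and normalized by loess within arrays (span 0.3, 4 iterations). Levels were also scaled between arrays with Aquantile. Outlier spots, at most 186 an array, were dropped, and 43379 spots gave 41174 probes. Of these, 26434 were kept, those well above background in all 4 samples of a group and with values on at least 3 arrays. Names came from a RefSeq table (GRCm38.p6; 23374 probes matched by accession, 6733 by symbol, 2919 by synonym, 8148 kept the file's name), and each gene was read from its brightest kept probe. The fit (lmFit, eBayes) had a dye and a Th3 term, 2 residual degrees of freedom and 4.52 prior ones, with Benjamini-Hochberg adjustment over 17628 genes. With 1 array left out, residual spread was read only from the 2 arrays that shared a dye order, so those adjusted p-values are rough. Without array 1 or 2 some fell far below those from all 4 arrays, as for Ahsg (limma adjusted p 3.28e-12 without array 2, against 0.00696). No tested member had a called dye term. A ± is the SD over arrays. The number of arrays limits the precision. On data simulated for this comparison over 17628 genes, 68 of 100 genes changed by 0.3 (log2) and all 100 changed by 0.7 were called, and so were 25 of the unchanged genes. The simulated noise was independent between arrays, with 200 genes changed. Real ratios across genes correlated at 0.67 and 0.71 within the pairs of arrays and at 0.43 to 0.53 between them. These simulated counts may therefore not hold for the real arrays.

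Members, lists, alternatives and the rule for named genes were chosen with earlier results of these data known. The rule named all members with their probes, up to 2 increases and 2 decreases of each list, the 3 nearest patterns to the member of lowest p, and the deleted globin (some marker genes only in counts); Atoh8, Bmp6, Id1, Creb3l3, Epas1, Hif1a, Fth1, Slc40a1, Fgb and Alb were added after their values were seen.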

Additional observations from a re-analysis of the deposited data

Results flagged for a closer look

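Of 65 sets of 4 log2 ratios examined for 1 array far from the other 3, 3 stood out. Chance alone flags about 1 in 20, which is about as many. Id3, a BMP target, had log2 ratios of -0.37, 0.08, -0.31 and -0.38, and the gap of array 2 to the nearest array was 0.855 of the range. Without array 2 it stood at -0.35 and passed (limma adjusted p 0.0115), against -0.24 and 0.0788 with it, and without array 1 it stood at -0.13 (0.425). Array 2 was picked for lying far from the others, so leaving it out had to move the mean away from it. In both of these fits residual spread was read from arrays 3 and 4 only. The kidney cadherin Cdh16 was set apart by array 1, with a gap of 0.973 of a narrow range. Ucp1, the uncoupling protein of brown fat, had log2 ratios of -4.02, -2.01, -3.78 and -3.80, and the gap of array 2 was 0.881 of the range.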

How the results depend on the processing

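Tmprss6 and Trf kept their direction and passed under all 14 alternatives. Each has 1 probe, so the mean of the probes could not change their ratios, and several other alternatives left them as they were. Neo1 did not pass with the mean of its probes (0.14) or without array 2 (0.27). Tfr2 passed without array 2 (0.33), though not in the fit over probes, and Smad7 (0.32) and Smad6 (0.28) passed without array 3. Hfe and Hamp2 passed under none, and with 1 array left out Hamp2 ran from -0.03 to 0.17 and Id1 from -0.26 to 0.06, so that both could change sign. Of the 10 genes, those called higher numbered 1 with the mean of all kept probes, against 2, and from 2 to 4 with 1 array left out; 1 was lower throughout. With 2 of 4 arrays in place of all 4 as the rule for a detected gene, 8 were still detected. Over all genes, the 1927 called higher became 1102 without the dye term and 645 with the array pairs as a random block (correlation 0.18). The 1866 called lower became 888 and 554, and 1144 with median centring. Over all probes, 2451 higher became 1436 and 929 and ran from 1130 to 2736 with 1 array left out; 2359 lower became 1170 and 801, 1398 with median centring, and ran from 1113 to 2461. Of the pathway genes, 17 higher became 11 without the dye term and 5 with the block; 11 lower became 5 and 4, 5 with median centring, and ran from 6 to 9 with 1 array left out. The cause of these shifts was not tested. Every ratio sets Th3 against the control sample of the same array, so each fit is paired within arrays, and a block on the replicate number could not be added because each number occurs once. Near the floors, as for Hamp and Hjv, no change could be detected, and the offset of 50 draws the ratios of dim probes such as Tmprss6 and Hamp2 towards 0.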
